A study of Mus musculus with 9 samples.

Results

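The Hist1 histone gene cluster of the mouse was followed in WGBS of J1 ESCs of 3 genotypes, WT, *Dnmt3a* KO and *Dnmt3b* KO. Its members were the protein-coding genes of the mm9 annotation on chromosome 13 whose symbols start with Hist1h, and 55 of the 14278 protein-coding genes in the compared stretch of the genome met this rule. They comprised 6 H1, 14 H2A, 15 H2B, 9 H3 and 11 H4 genes. Of these, 54 lay within 2219089 bp (chr13:21807632-24026720) in 4 groups separated by gaps of more than 100 kb, which held 18, 5, 29 and 2 genes, and *Hist1h2al* lay alone at chr13:51298057-51298434. Histone genes of this kind are small, mostly lack introns and are transcribed in S phase, when the cell packages newly copied DNA. Neighbouring H2A and H2B genes often share 1 short stretch of DNA from which both are transcribed in opposite directions. The cluster also holds testis-type genes, among them *Hist1h1t* (the testis linker histone H1t), *Hist1h2ba* (testis H2B) and *Hist1h2aa* (testis H2A), which are used in male germ cells. DNMT3A and DNMT3B are the enzymes that place methyl groups on CpGs that were unmethylated before, and CpG-rich promoters usually stay free of methylation.

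J1 is an ESC line of strain 129S4/SvJae, and the cells were grown on gelatin in medium with serum and LIF. The compared genotypes were wild type, Dnmt3a-/- and Dnmt3b-/-, without any other allele or treatment in the labels, and the sources used here do not give the number of independent clones behind each KO. The question was where in these cells methylation depends on DNMT3A and where on DNMT3B. Each genotype had 3 libraries, which the authors merged into 1 table, so that each value below is 1 pooled share of methylated reads, the spread between libraries cannot be had, and no test across replicates was made. The 95% intervals given below (Wilson for a level, Newcombe for a difference) cover counting error only. Reads over a region were summed at each CpG, so that a read over several CpGs counts more than once. The intervals and upper limits take these counts as independent and can be too narrow. Bisulfite sequencing does not separate 5-methylcytosine from 5-hydroxymethylcytosine, and in a bulk sample a level of 20% cannot tell few fully methylated cells from many partly methylated ones.

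The genotypes were first checked by reads over the exons of both genes. Exon 18 of *Dnmt3a* in the *Dnmt3a* KO table had 0 reads per CpG and exon 19 had 0.5, against 20.5 and 34.4 in WT ESCs. Exons 18, 19 and 20 of *Dnmt3b* had 0 reads per CpG in the *Dnmt3b* KO table, against 33.2, 27.8 and 38 in WT ESCs. Over the compared part of the genome the median depth per CpG was 22 reads in WT, 20 in *Dnmt3a* KO cells and 21 in *Dnmt3b* KO cells, and the Hist1h promoters had between 12.4 and 33.0 reads per CpG in WT, 12.5 to 27 in *Dnmt3a* KO cells and 13.3 to 28.5 in *Dnmt3b* KO cells. Among promoters of ESC genes, the WT level was 0.299% at *Pou5f1*, 0% at *Sox2* and 0.118% at *Klf4*, whereas the annotated TSS of *Esrrb* stood at 91.9% in WT, 26.9% in *Dnmt3a* KO cells and 86.1% in *Dnmt3b* KO cells.

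The following upstream sequences of mm9 show the contrast on which the results turn, a testis-type gene beside a somatic gene of the same class, with CpGs in capitals. The first pair gives the 250 bases before the TSS of 2 linker histone genes, *Hist1h1t* (chr13:23787430-23787679, plus strand) and *Hist1h1c* (chr13:23830426-23830675, plus strand). The second pair gives the 250 bases before the TSS of *Hist1h2aa* on the side of *Hist1h2ba* (chr13:24026081-24026330, plus strand) and the whole stretch between *Hist1h2bf* and *Hist1h2ad* (chr13:23666066-23666249, plus strand), 2 divergent H2A-H2B promoters.
Hist1h1t: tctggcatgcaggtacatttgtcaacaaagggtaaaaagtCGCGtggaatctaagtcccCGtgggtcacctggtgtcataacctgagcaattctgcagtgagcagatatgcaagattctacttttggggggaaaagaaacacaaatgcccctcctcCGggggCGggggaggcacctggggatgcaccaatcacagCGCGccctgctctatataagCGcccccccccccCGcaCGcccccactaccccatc
Hist1h1c: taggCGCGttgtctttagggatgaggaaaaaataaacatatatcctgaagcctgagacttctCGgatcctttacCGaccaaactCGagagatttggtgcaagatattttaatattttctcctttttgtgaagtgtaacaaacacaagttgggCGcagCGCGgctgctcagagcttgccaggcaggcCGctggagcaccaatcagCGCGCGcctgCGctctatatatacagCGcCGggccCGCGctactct
Hist1h2aa: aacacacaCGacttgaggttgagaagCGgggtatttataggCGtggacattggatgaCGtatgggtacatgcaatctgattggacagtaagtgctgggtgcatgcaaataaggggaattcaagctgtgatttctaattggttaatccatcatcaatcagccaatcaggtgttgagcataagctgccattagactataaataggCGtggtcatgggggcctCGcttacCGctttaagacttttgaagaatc
Hist1h2bf-Hist1h2ad: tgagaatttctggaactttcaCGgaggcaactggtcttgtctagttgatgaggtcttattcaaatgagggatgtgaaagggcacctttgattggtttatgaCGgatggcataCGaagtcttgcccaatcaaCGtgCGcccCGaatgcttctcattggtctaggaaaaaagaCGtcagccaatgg

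Within the *Hist1h1t* window, 5 of the 10 CpGs had 3 or more reads in every genotype. There, 77 of 91 reads were methylated in WT (84.6%, 75.8 to 90.6), 9 of 28 in *Dnmt3a* KO cells (32.1%, 17.9 to 50.7) and 33 of 58 in *Dnmt3b* KO cells (56.9%, 44.1 to 68.8). The *Dnmt3b* KO reads were split by position, with 32 of 47 methylated at the 3 CpGs farther from the TSS and 1 of 11 at the 2 measured ones nearest to it. The same split gave 54 of 67 and 23 of 24 in WT, and 6 of 18 and 3 of 10 in *Dnmt3a* KO cells. These 2 neighbouring CpGs had 5 and 6 reads in *Dnmt3b* KO cells, which can come from the same molecules, and CpGs still closer to the TSS were not measured. In the *Hist1h1c* window, of the same length and with 17 CpGs, the levels were 0.838%, 0% and 0%. The 7 CpGs before *Hist1h2aa* stood at 40.9% in WT, 8.96% in *Dnmt3a* KO cells and 39.5% in *Dnmt3b* KO cells. Over the same number of CpGs between *Hist1h2bf* and *Hist1h2ad*, no methylated read was seen. The reads summed over these CpGs were 209 in WT, 241 in *Dnmt3a* KO cells and 152 in *Dnmt3b* KO cells. Taken as independent counts, they allow levels of up to 1.44%, 1.24% and 1.97%. The observed over expected CpG ratio of these windows was 0.501 for *Hist1h1t* and 1.07 for *Hist1h1c*, and 0.598 for *Hist1h2aa* and 0.736 for the *Hist1h2bf-Hist1h2ad* stretch.

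Promoters of the Hist1 cluster were, with few exceptions, unmethylated in all 3 genotypes. A promoter was taken as the window of 500 bp up- and downstream of the TSS, and all 55 were measured, over 18 to 90 CpGs each. Of the 55 promoters, 44 were below 5% in WT ESCs and 49 in each of the KOs. The median promoter level was 1.90% in WT, 0.372% in *Dnmt3a* KO cells and 0.563% in *Dnmt3b* KO cells, beside 9.68%, 1.81% and 5.17% over all 13914 protein-coding promoters measured. The share of all promoters below 5% is not given here, and in *Dnmt3a* KO cells their median was itself below 5%. Only 4 members were methylated at 20% or more in WT ESCs, namely *Hist1h1t*, *Hist1h2ba*, *Hist1h2aa* and *Hist1h2al*. These 4 of 55 were also the members lower in *Dnmt3a* KO than in WT ESCs by more than 20 percentage points, beside 37.6% of all promoters. The other 51 started below 20% and could not pass this limit, whereas 5225 of the 5896 promoters at 20% or more in WT passed it. No member was lower by more than 20 points in *Dnmt3b* KO ESCs, where 4.69% of all promoters were.

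**Figure D1:**
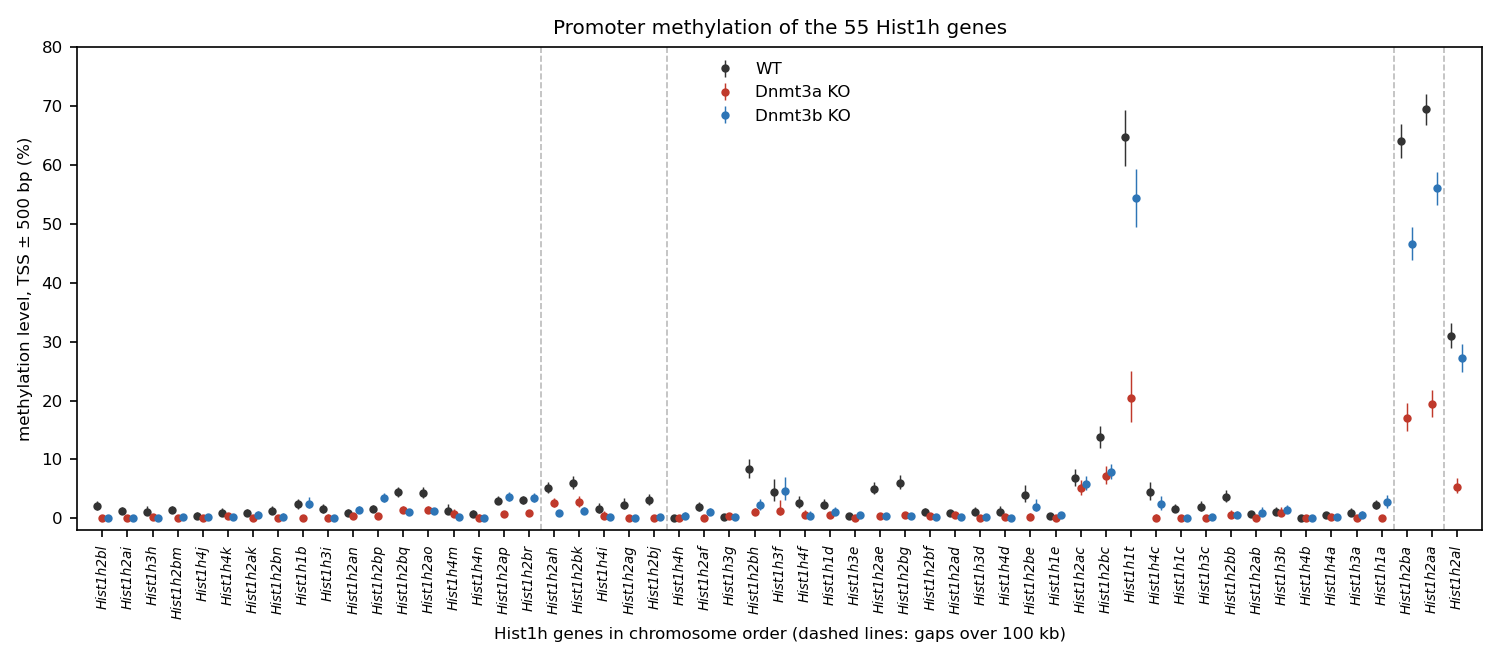
Methylation level of the window of 500 bp up- and downstream of the TSS (%, y axis) for the 55 Hist1h genes in chromosome order (x axis); points are the pooled share of methylated reads in each genotype and bars its 95% Wilson interval. The 4 methylated promoters stand at 31.0 to 69.5% in WT ESCs, and the other 51 at 13.7% or less.

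The testis-type genes carried the highest promoter levels. At *Hist1h2aa* (chr13:24026331-24026720), the testis H2A gene, the promoter was methylated at 69.5% in WT (95% interval 66.8 to 72.0), 19.4% in *Dnmt3a* KO cells (17.2 to 21.9) and 56.0% in *Dnmt3b* KO cells (53.2 to 58.7). Its neighbour *Hist1h2ba* (chr13:24025637-24026025), the testis H2B gene, stood at 64.1% in WT (61.2 to 66.9), 17.1% in *Dnmt3a* KO cells (14.9 to 19.6) and 46.6% in *Dnmt3b* KO cells (43.9 to 49.4). The windows of both genes overlap, so that they are not independent measurements. At both, as at *Hist1h2al*, the annotated TSS is the first base of the coding sequence, so that these windows are centred on the start codon. Much of each window is therefore coding sequence. That of *Hist1h2aa* stood at 74.0% in WT over 25 CpGs, and the 305 bp between both genes at 42.8% over 8 CpGs. The promoter of *Hist1h1t* (chr13:23787680-23788588), the testis linker histone gene, was at 64.7% in WT (59.9 to 69.3), 20.4% in *Dnmt3a* KO cells (16.4 to 25.0) and 54.5% in *Dnmt3b* KO cells (49.4 to 59.4). At each of these testis-type genes the intervals of the 3 genotypes did not overlap, with WT highest and *Dnmt3a* KO lowest.

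*Hist1h2al*, the H2A gene outside the cluster, had a lower WT level, with 31.0% in WT (28.9 to 33.1), 5.40% in *Dnmt3a* KO cells (4.29 to 6.78) and 27.2% in *Dnmt3b* KO cells (24.8 to 29.7). Over all CpGs of this window, the WT and *Dnmt3b* KO intervals overlapped. Set against WT, *Dnmt3a* KO ESCs differed by -50.1 percentage points at *Hist1h2aa*, -47.0 at *Hist1h2ba*, -44.4 at *Hist1h1t* and -25.6 at *Hist1h2al*, and the interval closest to 0 ended at -23.1. For *Dnmt3b* KO ESCs the differences were -13.5, -17.5, -10.3 and -3.80 points, with intervals of -17.2 to -9.65, -21.4 to -13.5, -17.0 to -3.37 and -7.00 to -0.550. Over all CpGs, *Dnmt3a* KO ESCs thus kept between 17.4% (*Hist1h2al*) and 31.5% (*Hist1h1t*) of the WT level at these promoters. *Dnmt3b* KO ESCs kept between 72.7% (*Hist1h2ba*) and 87.7% (*Hist1h2al*) over all CpGs. Over all promoters that were at 20% or more in WT, the median share kept was 54.7% in *Dnmt3a* KO cells and 90.2% in *Dnmt3b* KO cells. All 44 CpGs of the *Hist1h2aa* window lie in unique sequence, whereas 32 of 56 do at *Hist1h2al*, which on these alone stood at 42.2% in WT ESCs. The difference of *Dnmt3a* KO from WT also passed 20 points at each of the 4 promoters on unique CpGs.

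Below these, the promoter levels of 51 genes ranged from 0 to 13.7% in WT ESCs, with a median of 1.56%, beside 0.227% in *Dnmt3a* KO cells and 0.475% in *Dnmt3b* KO cells. All 8018 promoters below 20% in WT had medians of 1.85%, 0.472% and 0.879%. The highest of the 51 was *Hist1h2bc*, an H2B gene next to *Hist1h1t*, with 13.7% in WT (12 to 15.7), 7.27% in *Dnmt3a* KO cells (5.88 to 8.95) and 7.80% in *Dnmt3b* KO cells (6.63 to 9.17). *Hist1h2bh*, another H2B gene, stood at 8.35% in WT (6.90 to 10.1), 1.01% in *Dnmt3a* KO cells (0.563 to 1.79) and 2.21% in *Dnmt3b* KO cells (1.45 to 3.35). On its 20 unique CpGs *Hist1h2bh* had lower levels in WT, with 3.94%, 1.01% and 1.11%, and *Dnmt3a* KO minus *Dnmt3b* KO was -0.0976 points there (-1.66 to 1.24). At both genes each KO was below WT by more than counting error over all CpGs. The difference between the KOs was -0.538 points at *Hist1h2bc*, with an interval that included 0 (-2.49 to 1.52). On the 20 unique CpGs of *Hist1h2bc* both calls changed, since *Dnmt3b* KO minus WT was -3.00 points (-6.95 to 0.830) and *Dnmt3a* KO minus *Dnmt3b* KO was -4.78 (-8.05 to -1.11). The promoter of *Hist1h4b*, an H4 gene, had no methylated read in any genotype. Its reads summed over CpGs were 781, 644 and 656, which as independent counts allow up to 0.384%, 0.466% and 0.457%. The lowest promoters of the other classes in WT ESCs were *Hist1h1e* at 0.483%, *Hist1h2ab* at 0.668%, *Hist1h2bf* at 1.15% and *Hist1h3g* at 0.170%. The highest H3 and H4 promoters were *Hist1h3f* at 4.46% and *Hist1h4c* at 4.48%.

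Differences above 0 were small. The largest in *Dnmt3a* KO ESCs was at *Hist1h3g*, from 0.170% to 0.372%, with an interval of the difference of -0.301 to 0.795 points, followed by 0 at *Hist1h4b* and -0.0117 points at *Hist1h4h*. *Hist1h2bp* stood at 1.65% in WT and 3.45% in *Dnmt3b* KO ESCs, a difference of 1.80 points (0.850 to 2.76), and *Hist1h2ap* and *Hist1h2an* differed by 0.595 and 0.523 points with intervals that included 0. On its 26 unique CpGs *Hist1h2bp* stood at 0.267% in WT and 0.252% in *Dnmt3b* KO ESCs, and the interval of the difference, -0.741 to 0.675 points, included 0. *Hist1h2ap* lies in a block of near-identical copies and none of its promoter CpGs was unique, so that its reads cannot be assigned with certainty.

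By class, and without the 4 methylated genes, the median WT promoter level was 2.23% for H1, 2.13% for H2A, 3.38% for H2B, 1.06% for H3 and 1.00% for H4. For *Dnmt3a* KO ESCs it was 0.109%, 0.458%, 0.506%, 0.121% and 0.161% in the same order, and for *Dnmt3b* KO ESCs 1.17%, 0.983%, 0.823%, 0.321% and 0.203%. All of these medians were below 4%, and 24 members share CpGs with the window of a neighbour, so that the classes H2A and H2B are not separate samples of DNA.

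Sequence composition of the same windows separated the 4 methylated genes only in part. The other 51 promoters held a median of 65 CpGs within 500 bp of the TSS, with an observed over expected CpG ratio of 0.883 and a range of 0.521 to 1.04. *Hist1h1t* held 29 CpGs with a ratio of 0.454, below that range. *Hist1h2aa*, *Hist1h2ba* and *Hist1h2al* had ratios of 0.649, 0.681 and 0.733, within it. Over all protein-coding promoters the medians were 45 CpGs and a ratio of 0.585.

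Promoter motifs were counted by their letters, on both strands, in the 250 bp before the TSS. CCAAT was present in 46 of 55 members and in 34.2% of all promoters. Every H1, H2A and H2B gene carried it, 8 of 9 H3 genes and 3 of 11 H4 genes. The TATA element TATAAA was found in 26 of 55 members, beside 11.96% of all promoters. The octamer ATTTGCAT, known from H2B promoters, occurred in 6 of 15 H2B and 5 of 14 H2A genes and in none of the H1, H3 and H4 genes, beside 1.69% of all promoters. None of these strings contains another, and divergent partners can share a match. Of the 4 methylated genes, *Hist1h2aa* and *Hist1h2ba* carried all 3 motifs, and *Hist1h1t* and *Hist1h2al* carried CCAAT alone. Only exact strings were counted, so that near matches such as tatataag in the *Hist1h1t* sequence above are missed. Lack of TATAAA is therefore not lack of a TATA element.

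Around the TSS, the 51 genes below 20% lay in a wide valley. The mean CpG level in WT ESCs was 1.09% in the 250 bp before the TSS, 7.56% at 1 to 1.5 kb upstream and 29.8% at 3 to 4 kb upstream. The same bins in *Dnmt3a* KO ESCs stood at 0.255%, 1.57% and 10.1%, and in *Dnmt3b* KO ESCs at 0.378%, 4.79% and 24.1%. All other protein-coding genes were at 10.4%, 62.9% and 77.4% in WT ESCs in these bins. The 51 were chosen for a promoter level below 20% in WT, and the other genes were not. The contrast next to the TSS is therefore set in part by that choice. Since Hist1h genes lie close together, bins beyond 1 kb often hold the promoter of a neighbour. At the 4 methylated genes the WT profile dipped to 47.7% just after the TSS and reached 93.3% at 1 to 1.5 kb upstream, and *Dnmt3a* KO ESCs showed 12.1% and 42.9% there.

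**Figure D2:**
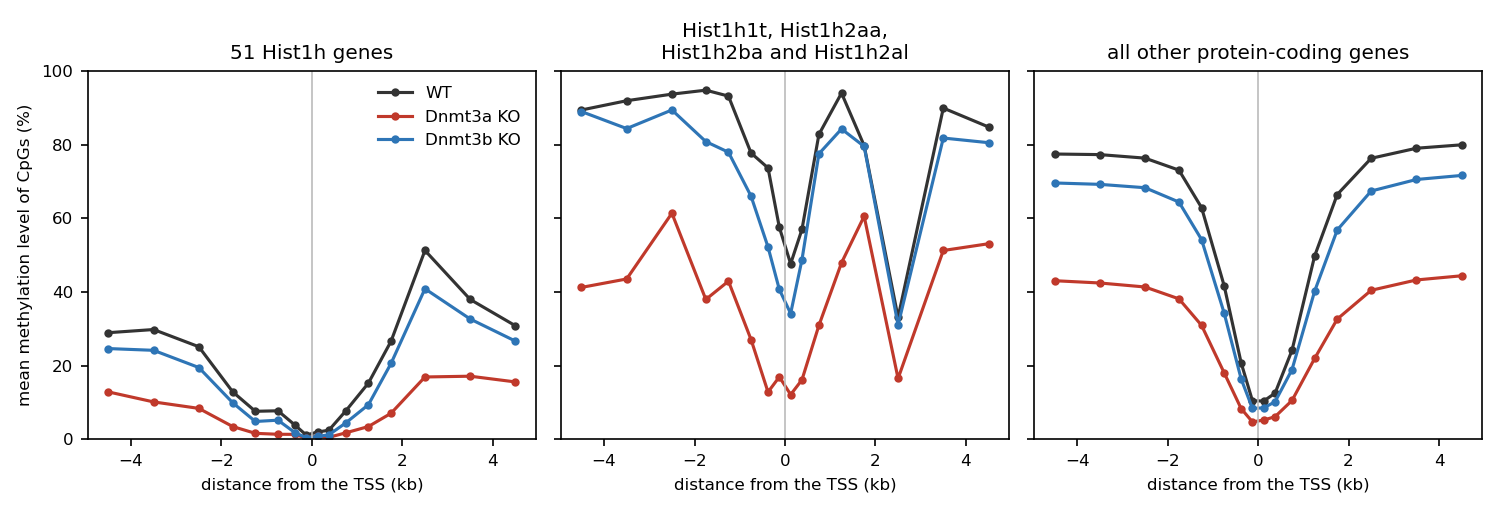
Mean methylation level of CpGs (%, y axis) by distance from the TSS (kb, x axis) for each genotype, for 51 Hist1h genes, the 4 methylated Hist1h genes and all other protein-coding genes; points are bins. In the first panel WT stays below 10% from 1.5 kb upstream to 1 kb downstream; the dip at 2 to 3 kb downstream in the middle panel, at 33.1% in WT, is a bin that holds the TSS of *Hist1h4c*.

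Gene bodies begin at the TSS and therefore share CpGs with the promoter windows. Coding sequences had a median level of 0.768% in WT, 0.154% in *Dnmt3a* KO cells and 0.279% in *Dnmt3b* KO cells. Whole gene bodies were at 0.924%, 0.190% and 0.336%, beside 83.6%, 48.0% and 75.2% over all 14105 protein-coding gene bodies. Of 55 gene bodies, 7 were lower in *Dnmt3a* KO than in WT ESCs by more than 20 points, against 91.4% of all gene bodies. In *Dnmt3b* KO ESCs 1, *Hist1h2ba*, was so, against 2.32%. Most Hist1h gene bodies started below 20% in WT and could not pass this limit. The 7 were *Hist1h1t*, *Hist1h2aa* and *Hist1h2ba* and *Hist1h2be*, *Hist1h2bc*, *Hist1h2ac* and *Hist1h2br*, whose annotated model extends well past the histone coding sequence. The longest of these models belong to *Hist1h2be*, at 60.4% in WT, 30.8% in *Dnmt3a* KO cells and 54.5% in *Dnmt3b* KO cells, and to *Hist1h2bc*, at 47.6%, 21.7% and 40.2%. The coding sequence of *Hist1h2be* alone was at 5.07% in WT ESCs. It lies at chr13:23677448-23677825, far from the promoter window of this model at chr13:23712493-23713493. The promoter level of *Hist1h2be* is thus not that at its coding sequence, and the DNA between them counts as gene body, not as a stretch. The median difference of the gene bodies from WT was -0.717 points in *Dnmt3a* KO cells and -0.462 in *Dnmt3b* KO cells. In the 17 genes that could be measured beyond 500 bp from the TSS, it was -9.52 and -4.08 points.

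H2B coding sequences stood apart from the other classes by a low level of methylation in WT ESCs. Without the 4 methylated genes, their median was 5.34%, and that of H1, H2A, H3 and H4 coding sequences was 0.823%, 0.548%, 0.675% and 0.49%. It was 1.08% in *Dnmt3a* KO cells and 1.13% in *Dnmt3b* KO cells, and the median difference was -4.12 points in *Dnmt3a* KO cells and -4.70 in *Dnmt3b* KO cells. *Hist1h2bg* was at 11.7% in WT (9.66 to 14.1), 1.2% in *Dnmt3a* KO cells (0.609 to 2.35) and 0.426% in *Dnmt3b* KO cells (0.166 to 1.09). On its 5 unique CpGs the levels were 2.61%, 0.833% and 2.05%, and the intervals of both differences from WT included 0 (-6.61 to 2.34 and -5.50 to 2.99). *Hist1h2bc* was highest, with 21.0% in WT (18.5 to 23.9), 12.9% in *Dnmt3a* KO cells (10.4 to 15.9) and 12.5% in *Dnmt3b* KO cells (10.6 to 14.7). On its 7 unique CpGs it stood at 22.5%, 8.80% and 17.4%, where *Dnmt3b* KO minus WT was -5.13 points (-12.5 to 2.17) and *Dnmt3a* KO minus *Dnmt3b* KO -8.61 (-15.1 to -1.05). Against this direction, *Hist1h2bp* was higher in *Dnmt3b* KO ESCs, at 7.31% beside 3.6% in WT, and *Hist1h2be* was at 7.51% in *Dnmt3a* KO ESCs beside 5.07%, with an interval of the difference of -0.0179 to 5.15. Neither difference held on unique CpGs, where it was 0.276 points at *Hist1h2bp* (-3.34 to 3.08, 5 CpGs) and 0.312 at *Hist1h2be* (-3.80 to 5.67, 4 CpGs). *Hist1h2bk* stood at 10.5% in WT, 6.09% in *Dnmt3a* KO cells and 2.79% in *Dnmt3b* KO cells. On its 8 unique CpGs the level in *Dnmt3a* KO ESCs was above that in WT, at 9.68% beside 6.96%, with an interval of the difference that included 0 (-3.33 to 10.9), and *Dnmt3a* KO minus *Dnmt3b* KO was 7.06 points (1.44 to 14.9).

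Over all CpGs, the H2B coding sequences stood at 7.62%, 8.84% and 6.5% in the first, middle and last of 3 equal parts in WT ESCs. Unique CpGs gave 6.80% and 4.94% in the first and last part, over 62 and 19 CpGs, and the middle part held only 2 of them. Coding sequences of one class are near copies of each other, and few of their CpGs lie in unique sequence. On unique CpGs alone, 12 H2B genes could be measured, over 4 to 14 CpGs each, with a median level of 3.07% in WT, 0.417% in *Dnmt3a* KO cells and 0.613% in *Dnmt3b* KO cells. On the same CpGs the WT medians of H1, H2A, H3 and H4 were 0.877%, 0.327%, 0% and 0%. The part of misplaced reads in the H2B level was not tested. The H2B coding sequences named here were chosen after their values had been seen.

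**Figure D3:**
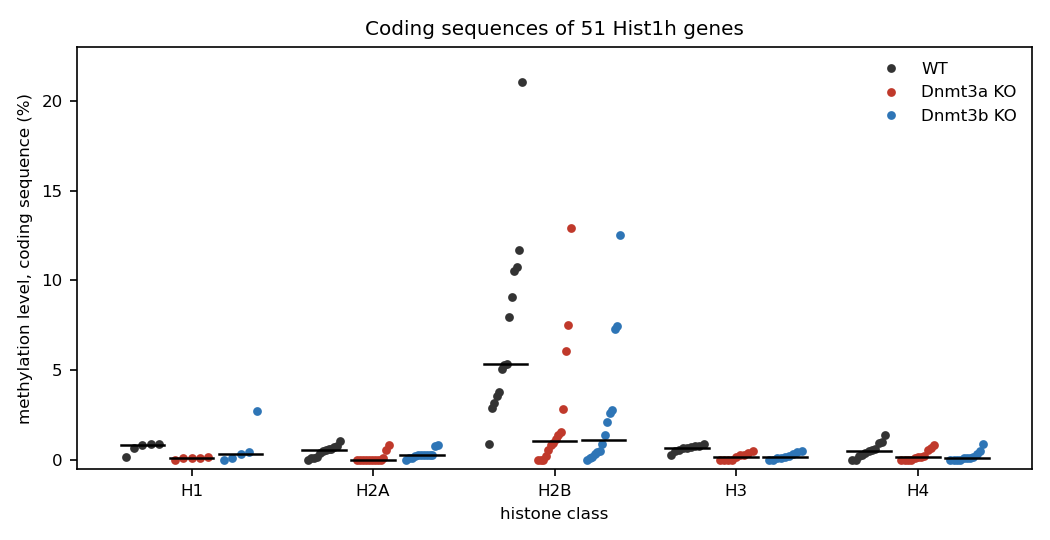
Methylation level of the coding sequence (%, y axis) of 51 Hist1h genes by histone class (x axis), without the 4 genes with methylated promoters; each point is a gene, and black bars are medians. H2B genes spread up to 21.0% in WT ESCs, and H2A, H3 and H4 genes stay below 2% in every genotype.

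Between the genes, long stretches were methylated and short ones were not. The 54 genes of the cluster left 53 gaps, of which 48 held no other protein-coding gene, and 47 of these were measured, since the 175 bp between *Hist1h2ae* and *Hist1h2bg* had 1 CpG. Their median level was 12.8% in WT, 1.69% in *Dnmt3a* KO cells and 8.74% in *Dnmt3b* KO cells, beside 85.2%, 48.9% and 76.9% over 12670 stretches between protein-coding genes. Of 47 stretches, 19 were lower in *Dnmt3a* KO than in WT ESCs by more than 20 points, against 89.9% of all stretches. None (0 of 47) was in *Dnmt3b* KO ESCs, against 1.51%. Only 20 of the 47 were at 20% or more in WT and could pass this limit, and the 19 were among these. The median difference was -10.7 points in *Dnmt3a* KO cells and -1.98 in *Dnmt3b* KO cells, beside -33.1 and -7.17 for all stretches. Beyond 500 bp from any TSS, where 32 stretches could be measured, the cluster medians were -28.8 and -6.59 points.

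Stretches under 1 kb were nearly all unmethylated, with medians of 0.171%, 0% and 0% over 18 of them. Among 10 measured divergent stretches shorter than 500 bp, 9 did not exceed 1.5% in any genotype and 6 had no methylated read at all. The exception was the 305 bp between *Hist1h2ba* and *Hist1h2aa*, at 42.8% in WT, 11.1% in *Dnmt3a* KO cells and 38% in *Dnmt3b* KO cells. No value over all stretches under 1 kb, or over all short divergent ones, is given here. Low levels of the short stretches can therefore not be called particular to the cluster. From 1 kb to under 5 kb, 20 stretches had medians of 20.5% in WT, 3.86% in *Dnmt3a* KO cells and 13.7% in *Dnmt3b* KO cells, where all stretches of that length had 79.0%, 35.9% and 66.7%. The 9 stretches of 5 kb and more reached 72.0%, 30.6% and 61.1%, beside 86%, 51% and 78.1%. Across the 47 stretches the WT level rose with the logarithm of length (Pearson r = 0.82, Spearman rho = 0.88), as a description of neighbouring pieces of 1 chromosome that are not independent.

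**Figure D4:**
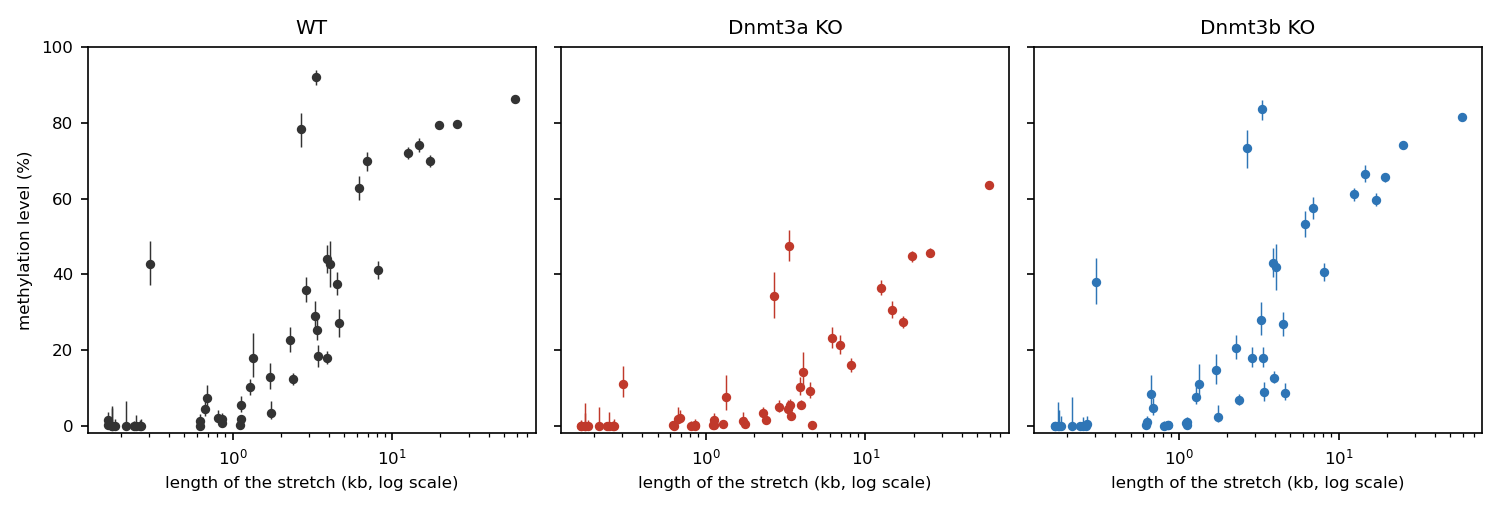
Methylation level (%, y axis) of 47 stretches between neighbouring Hist1h genes against their length (kb, log scale, x axis) for each genotype; bars are 95% Wilson intervals. Short stretches lie at or near 0 in each genotype, and the longest, of 59.0 kb, stands at 86.2% in WT, 63.6% in *Dnmt3a* KO cells and 81.7% in *Dnmt3b* KO cells.

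The longest stretch, of 58964 bp between *Hist1h1e* and *Hist1h2ac*, was methylated at 86.2% in WT (85.6 to 86.8), 63.6% in *Dnmt3a* KO cells (62.7 to 64.4) and 81.7% in *Dnmt3b* KO cells (81.0 to 82.3). The next in length lie between *Hist1h2bn* and *Hist1h1b*, at 79.6%, 45.7% and 74.0%, and between *Hist1h4m* and *Hist1h4n*, at 79.4%, 44.7% and 65.6%. The stretch between *Hist1h2bp* and *Hist1h2bq* had 69.9%, 27.3% and 59.7%. In the order named here, 290 of 480, 177 of 300, 109 of 400 and 68 of 184 CpGs of these stretches lie in unique sequence. The longest stretch kept 73.8% of its WT level in *Dnmt3a* KO cells and 94.7% in *Dnmt3b* KO cells.

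The largest falls in *Dnmt3a* KO ESCs were in stretches of 2681 to 17198 bp. Between *Hist1h3g* and *Hist1h2bh* the level was 69.8% in WT and 21.3% in *Dnmt3a* KO ESCs, a fall by 48.5 points (interval of the difference -51.9 to -44.8). Between *Hist1h2bc* and *Hist1h1t* it was 92.1% and 47.6%, the highest WT level of the 47 stretches. *Hist1h1d-Hist1h3e* fell from 78.4% to 34.2%, *Hist1h4j-Hist1h4k* from 74.1% to 30.6% and *Hist1h2bp-Hist1h2bq* by 42.6 points. At the other end, *Hist1h2bl-Hist1h2ai* and *Hist1h2ai-Hist1h3h* were among several stretches at 0% in both WT and *Dnmt3a* KO ESCs. The largest positive difference was at *Hist1h4a-Hist1h3a*, with 0% in WT and 0.300% in *Dnmt3a* KO ESCs and an interval that included 0.

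The 2 largest falls in *Dnmt3b* KO ESCs were in stretches at 27.1% and 36.0% in WT. Between *Hist1h1c* and *Hist1h3c* the level was 27.1% in WT (23.5 to 30.9), 0.196% in *Dnmt3a* KO cells (0.0347 to 1.10) and 8.74% in *Dnmt3b* KO cells (6.78 to 11.2), so that both KOs were below WT and *Dnmt3a* KO was nearly free of methylation. *Hist1h4k-Hist1h2ak* stood at 36.0%, 4.92% and 17.9%, a difference of -18.0 points in *Dnmt3b* KO ESCs (-22.2 to -13.8). Falls by 13.8, 12.2 and 10.9 points followed at *Hist1h4m-Hist1h4n*, *Hist1h3g-Hist1h2bh* and *Hist1h2bm-Hist1h4j*, which were at 79.4%, 69.8% and 72.0% in WT ESCs. The stretches with the largest positive differences, *Hist1h2ab-Hist1h3b* (3.99 points), *Hist1h2bg-Hist1h2bf* (1.80) and *Hist1h2bl-Hist1h2ai* (0.448), had intervals that included 0.

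As a share of WT, the 20 stretches methylated at 20% or more kept a median of 35.1% in *Dnmt3a* KO cells and 89.3% in *Dnmt3b* KO cells, beside 58.7% and 91.2% for all stretches. The share kept in *Dnmt3a* KO ESCs was larger in longer stretches (Pearson r = 0.66, Spearman rho = 0.64 over 20 stretches), with a median of 22.2% from 1 kb to under 5 kb and 41.3% from 5 kb. Over all stretches these medians were 51.7% and 59.5%. For *Dnmt3b* KO ESCs the correlation of the share kept with length was r = 0.13 (rho = 0). By orientation, convergent stretches, which lie between 2 gene ends, had a median level of 62.8% in WT, 21.3% in *Dnmt3a* KO cells and 53.3% in *Dnmt3b* KO cells. Divergent stretches had 0.171%, 0% and 0%, and tandem ones 15.2%, 2.17% and 8.58%. Orientation and length cannot be told apart here, since divergent stretches are mostly the shortest.

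Valleys of low methylation were wider over most of the genes in the KOs, as over most genes of the compared part of the genome whose start codon lay in such a valley. Runs in which each window of 5 CpGs had less than 10% methylated reads were joined where CpGs lay no more than 1000 bp apart. In each genotype 50 of 54 start codons lay inside such a run, and the others were those of *Hist1h1t*, *Hist1h2bc*, *Hist1h2ba* and *Hist1h2aa*. Of the 14278 start codons of all protein-coding genes, 5365 lay inside such a run in WT, 6284 in *Dnmt3a* KO cells and 5797 in *Dnmt3b* KO cells. In WT ESCs 34 runs covered 51.9 kb, with a median of 1251.5 bp each. The *Dnmt3a* KO table gave 29 runs over 92.2 kb (median 2751 bp), and the *Dnmt3b* KO table gave 32 runs over 67.3 kb (median 1901.5 bp). At 3500 bp or more, the length from which the study speaks of canyons, there was 1 run in WT, 10 in *Dnmt3a* KO cells and 3 in *Dnmt3b* KO cells. Of the 10, the run over *Hist1h2bq*, *Hist1h2ao* and *Hist1h4m* (4071 bp) and that over *Hist1h4n*, *Hist1h2ap* and *Hist1h2br* (5182 bp) lie in near-identical copies, with fewer than 3 unique CpGs in each promoter. Over all protein-coding genes, 37 of 5078 runs that hold a start codon reached this length in WT ESCs (0.729%), 376 of 5914 in *Dnmt3a* KO ESCs (6.36%) and 111 of 5467 in *Dnmt3b* KO ESCs (2.03%). The longest, of 7197 bp in *Dnmt3a* KO ESCs, joined *Hist1h2ae*, *Hist1h2bg*, *Hist1h2bf*, *Hist1h2ad* and *Hist1h3d*, which lay in 2 runs of 769 and 2781 bp in WT ESCs. Of the 50 start codons, 49 lay in a longer run in *Dnmt3a* KO than in WT ESCs and 1, that of *Hist1h4d*, in a shorter one (4401 beside 4456 bp), beside 96% in a longer run among 5333 start codons that lay in a run in both genotypes. The corresponding counts for *Dnmt3b* KO ESCs were 43 and 3, with 4 in runs of equal length, and the shorter ones were those of *Hist1h2ab*, *Hist1h3b* and *Hist1h1a*. Of 5324 start codons, 87.4% were in a longer run in this comparison, so that neither count of the cluster stands far from that of all genes. These lengths have no replicate check.

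**Figure D5:**
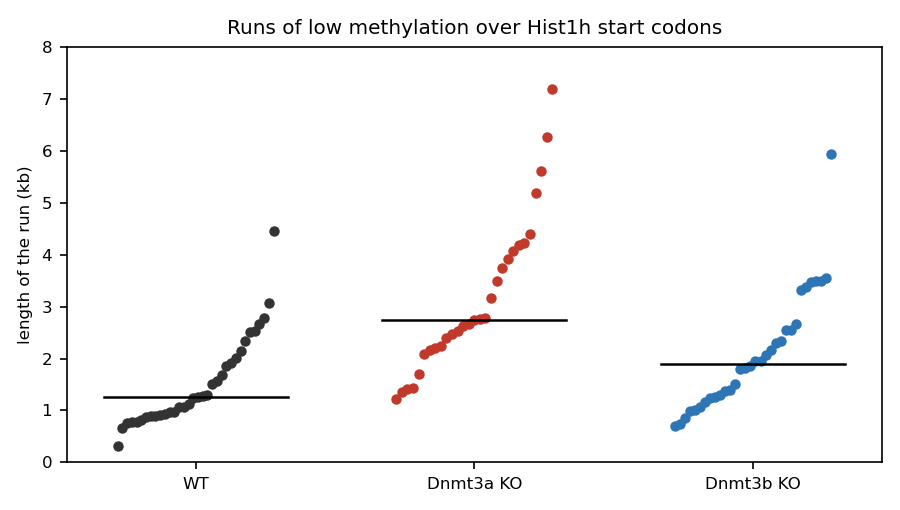
Length (kb, y axis) of the runs of low methylation that hold Hist1h start codons in each genotype (x axis); each point is a run and black lines are medians. The longest runs are 4.46 kb in WT, 7.20 kb in *Dnmt3a* KO cells and 5.93 kb in *Dnmt3b* KO cells, and every run in *Dnmt3a* KO ESCs exceeds 1 kb.

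Single CpGs were also called, where the 95% credible interval of the difference from WT lay wholly beyond 0.2 on the scale of 0 to 1. Of 5405 CpGs in Hist1h promoters, gene bodies and the stretches between them, 751 (13.9%) were hypomethylated in *Dnmt3a* KO ESCs, beside 25.6% of CpGs in the compared part of the genome, and none was hypermethylated, beside 0.00703%. For *Dnmt3b* KO ESCs 68 of 5414 (1.26%) were hypomethylated, beside 2.14%, and 3 were hypermethylated, where 0.069% of CpGs in the compared part of the genome were. In promoters the share was 2.20% in *Dnmt3a* KO cells and 0.33% in *Dnmt3b* KO cells, and in stretches 20.5% and 2.00%. Shares over the CpGs of all promoters or all stretches are not given here. In the *Dnmt3a* KO comparison, only 44 of 2728 promoter CpGs of the members were at 80% or more in WT. Among CpGs at 80% or more in WT ESCs, 569 of 1532 in the cluster (37.1%) were called in *Dnmt3a* KO ESCs, and 29.7% in the compared part of the genome. The corresponding shares in *Dnmt3b* KO ESCs were 3.05% and 2.22%. These calls compare the pooled reads of these libraries, not conditions, and they depend on depth.

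The KOs were also set directly against each other. Compared with *Dnmt3b* KO, the promoter level in *Dnmt3a* KO ESCs was lower with a whole interval below 0 at 20 of 55 members, beside 62.1% of all promoters, and it was higher with a whole interval above 0 at 2, *Hist1h2ah* and *Hist1h2bk*, beside 2.2% of all promoters. At *Hist1h2ah* this interval included 0 on unique CpGs (-0.403 to 3.83) and in the window around the start codon (-0.0963 to 1.79). Of the 47 stretches, 27 were lower in *Dnmt3a* KO ESCs in this sense, beside 94.4% of all stretches, and 0 were higher, beside 0.103%. Promoters and stretches at or near 0% in both KOs left little room for such a call. The median difference of the stretches was -6.64 points, and -21.8 points over the 32 that could be measured beyond 500 bp from any TSS. At the methylated promoters it was -36.6 points at *Hist1h2aa* (-40.1 to -32.9), -34.1 at *Hist1h1t* (-40.4 to -27.2), -29.5 at *Hist1h2ba* (-33.1 to -25.8) and -21.8 at *Hist1h2al* (-24.5 to -19.0).

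Histone genes outside the cluster and genes that regulate histone genes were also mostly unmethylated at their promoters. Of 33 such genes on the list, 24 lay in the compared part of the genome. Their median promoter level was 2.16% in WT, 0.430% in *Dnmt3a* KO cells and 0.664% in *Dnmt3b* KO cells. In WT ESCs 22 of 24 were below 20%, as were most of all promoters. The 2 above it were *H1fnt*, a testis linker histone gene, at 95.6% in WT, 74.0% in *Dnmt3a* KO cells and 88.6% in *Dnmt3b* KO cells, and *H3f3b*, which encodes the replacement histone H3.3, at 83.9%, 28.0% and 55.2% over 10 CpGs at the annotated TSS. The *H3f3b* window lies at the start of its longest isoform, and any other start of the gene is not covered. Both genes were lower by more than 20 points in *Dnmt3a* KO ESCs, beside 37.6% of all promoters. *H3f3b* was so in *Dnmt3b* KO ESCs too, beside 4.69%. Among genes of replication-dependent histone expression, *Casp8ap2* was at 0.967% in WT and 0.160% in *Dnmt3a* KO ESCs, and *Lsm10*, a part of the machinery that trims histone transcripts, was at 14.1%, 0.988% and 10.2%. Partly methylated promoters of this kind, *H2afy2* (17.8%, 1.87% and 13.3%) and *Coil* (13.1%, 1.63% and 9.11%) among them, were below 2% in *Dnmt3a* KO ESCs.

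Within the span of the cluster lie 48 other protein-coding genes, most of them vomeronasal receptor genes, which are expressed in sensory neurons of the nose. Their promoters had a median level of 87.8% in WT, 49.3% in *Dnmt3a* KO cells and 82.9% in *Dnmt3b* KO cells over 38 that were measured. Of these, 28 were lower by more than 20 points in *Dnmt3a* KO ESCs, beside 37.6% of all promoters. In *Dnmt3b* KO ESCs *Vmn1r194*, *Vmn1r198*, *Vmn1r220*, *Vmn1r223* and *Slc17a1* were so, beside 4.69% of all promoters. Most of the 38 started at 20% or more in WT, which most of all promoters did not, and only such promoters can pass this limit. The highest of the 38 were *Vmn1r195* (96.3% in WT), *Prss16* (95.9%) and *Vmn1r211* (94.8%). The lowest were *Zfp184* (0.182%), *Abt1* (0.564%) and *Zfp322a* (0.654%), the first and last of which encode zinc finger proteins. The 169353 bp between *Hist1h1a* and *Hist1h2ba* hold 5 other genes, and outside these genes they stood at 88.9%, 48.6% and 80.9%.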

How the data were processed

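WGBS libraries of 3 genotypes (WT, *Dnmt3a* KO and *Dnmt3b* KO, 3 libraries each) were analysed as the deposited tables, 1 per genotype. The authors aligned reads to mm9 with BSMAP, removed end-repair bias, clonal reads and overlapping mates with BSeQC, merged the libraries and made the read counts per CpG (all reads and methylated reads) with MOABS, without normalization. The authors also give the methylation ratio, a fraction from 0 to 1, as methylated over all reads, and the levels here were computed from the counts. BSMAP ran with its default settings, and the sources used here do not spell out how these place reads that match several gene copies. The WT table breaks off within a row, which was dropped, on chromosome 4 (position 140865857), so that the comparison covers chromosomes 1, 10 to 19, 2, 3 and that part of 4.

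Genes were taken from GENCODE (mm9), each protein-coding gene by its longest isoform. A region's level was the share of methylated reads over CpGs that had 3 or more reads in all 3 tables, for regions with at least 3 such CpGs. Stretches lie between neighbouring members. A limit of 20 percentage points, after the credible difference of 0.2 in the study's methods, served to count regions. Single CpGs were called from Beta posteriors with a uniform prior, with depths over 200 scaled to 200. A CpG was unique if its 101-base window, with C read as T, occurred once in mm9, as 14651 of 19890 checked did. Intervals are at the 95% level, and an upper limit for 0 is 3 counts of the total. The calls were tested on simulated data. Python 3.11.15 with numpy 2.4.6, pandas 2.3.3, scipy 1.17.1, numba 0.67.0 and matplotlib 3.10.9 was used. The alternatives were other read and CpG minimums, mean CpG ratios, unique CpGs, other windows, isoform ends, limits and call rules.

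Named members were the testis-type genes, promoters at 20% or more in WT, the 5 largest falls and 3 largest rises of each KO and the lowest and highest promoter of each class. Named stretches were the 5 longest, the 5 largest falls of each KO, the 3 smallest falls in *Dnmt3a* KO and the 3 largest rises in *Dnmt3b* KO. Other named genes came from a list of histone genes outside the cluster and histone gene regulators and from the 3 lowest and 3 highest other promoters in the span. Members and lists were chosen with earlier results of these data known.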

Additional observations from a re-analysis of the deposited data

How the results depend on the processing

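Of 114 values under alternative settings, 99 stayed within the counting interval of the median member (for counts, within 1.5 times) and 0 reversed. All 56 alternative values of a median difference from WT were below 0. Some settings could hardly move a value, and leaving out CpGs over 200 reads or taking the outermost isoform ends gave the main values throughout. The counting interval is that of a single member and does not measure the spread of a median over members. Within that interval, the median promoter difference shrank to -0.74 points (*Dnmt3a* KO) and -0.479 (*Dnmt3b* KO) within 250 bp of the TSS, and that of gene bodies in *Dnmt3b* KO ESCs was -0.858 on unique CpGs. The median difference of stretches in *Dnmt3a* KO ESCs became -15.7 points on unique CpGs, -14.1 both with at least 10 CpGs per stretch and over all stretches without the inside of other genes, and -28.8 beyond 500 bp from any TSS. Beyond that distance it was -6.59 in *Dnmt3b* KO ESCs, and the median difference between the KOs was -21.8 (an alternative chosen after seeing the data). Gene bodies beyond 500 bp from their TSS, measurable in 17 genes, gave -9.52 in *Dnmt3a* KO cells and -4.08 in *Dnmt3b* KO cells. For *Dnmt3b* 1 promoter passed 20 points within 250 bp of the TSS, and at a limit of 10 points 3 promoters and 7 stretches did. At a limit of 30 points 12 stretches passed in *Dnmt3a* KO ESCs. Fisher's exact test with Benjamini-Hochberg adjustment called 1266 hypomethylated CpGs in *Dnmt3a* KO cells and 124 in *Dnmt3b* KO cells, and an interval beyond 0.1 called 190 in *Dnmt3b* KO ESCs. The cause of these shifts was not tested. No share over all promoters, stretches or CpGs is given for these other windows, limits and rules. The counts under them can therefore not be set against the genome. No paired analysis was possible because the libraries of each genotype were merged, and for the same reason no library could be left out.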

Other observations

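The 3 CpGs of the Hist1 genes that were called hypermethylated in *Dnmt3b* KO ESCs lay apart from each other on chromosome 13. At position 21825315, between *Hist1h2bm* and *Hist1h4j*, 1 of 15 reads was methylated in WT and 8 of 10 in *Dnmt3b* KO ESCs. At position 23688901, inside the long gene model of *Hist1h2be*, the counts were 19 of 35 and 16 of 16. At position 24026651, in the coding sequence of the testis H2A gene *Hist1h2aa*, they were 11 of 22 and 32 of 32. Over the compared part of the genome 0.069% of CpGs were called so. These CpGs were chosen after their values had been seen, and single CpGs have no replicate check.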
